A study of Mus musculus with 6 samples.

Results

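The SLC25 family comprises the nuclear-encoded carriers that move metabolites across the inner mitochondrial membrane. Its members were taken as the genes of a mouse liver RNA-seq table whose symbol is Slc25a followed by a number, except 2 such rows that are not reported here, which gave 43 of 28880 genes. The choice used the symbol and no measured value. Livers of acute ethanol-exposed mice (n = 3) were compared with livers of control mice (n = 3), and the comparison asks how carrier transcripts differ after a single ethanol binge. All were wild-type male C57BL/6J mice of 6 to 8 weeks, and the labels give all 6 libraries the same batch. Ethanol-exposed mice were fasted for 12 h, received 1 oral gavage of 50% ethanol at 6 g/kg, and were sampled after 24 h. Control mice were kept without ethanol, and the labels state neither a fast nor a vehicle gavage for them, so ethanol, fasting and gavage cannot be told apart. The study's methods give 6 mice per group, whereas the data used here hold 3 libraries in each.

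SLC25 carriers share a fold of repeated membrane-spanning modules and are made in the cytosol, then inserted into the inner membrane through the carrier import route. They set what passes between cytosol and matrix: ADP, ATP and phosphate for oxidative phosphorylation, di- and tricarboxylates and amino acids for gluconeogenesis, lipogenesis and the urea cycle, and cofactors that the matrix cannot make. In liver these steps connect the NADH made during ethanol oxidation in the cytosol with the respiratory chain, because the inner membrane does not let NADH through.

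Each library held 60514417 to 74210869 counted reads. Comparisons between groups are given as CPM, the count scaled to a library size that edgeR's TMM factors correct, and these factors were 0.768 to 0.836 in ethanol-exposed and 1.26 to 1.27 in control mice. With library size alone, the median log2 fold change over the genes tested moves from −0.04 to −0.71, so changes are relative to that scaling. Levels of different carriers are compared as FPKM, the deposited value scaled to transcript length and library size. Hepatocyte markers summed to 119683 to 121309 CPM in ethanol-exposed and 65090 to 75639 CPM in control mice, with 5 of 5 higher at an adjusted p under 0.05 and 1 of them, Apoa1, a differentially expressed gene (DEG, defined with the family counts). Skeletal muscle markers in the table reached at most 0.11 CPM in any library, with Acta1 at 0 throughout. In bulk tissue, fewer cells of a type and less RNA per cell cannot be told apart, and the part of the hepatocyte level in the carrier results was not tested.

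Of the 43 members, 40 passed the filter on low counts and were tested. In acute ethanol-exposed mice, 10 of the 40 were upregulated (25%) and 3 were downregulated (7.5%), against 10.4% and 13.8% of the 16717 genes tested. DEGs were called by the quasi-likelihood test of edgeR with a log2 fold change past 1 and p under 0.05 after Benjamini-Hochberg adjustment over these genes. DEGs in either direction made up 32.5% of the members and 24.2% of all genes. The upregulated members were Slc25a47, Slc25a29, Slc25a51, Slc25a18, Slc25a33, Slc25a25, Slc25a28, Slc25a30, Slc25a22 and Slc25a12, with log2 fold changes from 1.02 to 4.33. The downregulated members were Slc25a35, Slc25a27 and Slc25a45, from −2.51 to −1.31. With library size alone in place of the TMM factors, 9 members were upregulated and 9 downregulated, while DEGs rose to 37.3% of all genes. By the adjusted p alone, 17 members were higher (42.5%) and 7 lower (17.5%), where the background was 21.5% in each direction. That balance depended on the processing, with 9 higher and 18 lower with library size alone. With limma on log2(FPKM + 1), which also changed the test and the filter, it was 7 higher and 15 lower of 32 members tested. The shares of all genes higher and lower were not computed for these settings, so these counts have no background beside them. Under these settings the median log2 fold change over the genes tested was −0.71 and −0.43, against −0.04 with the TMM factors in edgeR. The 7 lower members became 3 without ethanol replicate 1, control replicate 1 or control replicate 3, and 4 without control replicate 2. In TMM CPM, the 2 groups did not overlap for 28 of the 40 members (70%), against 59% of all genes tested. This held for all 13 DEGs on that scale, and for all of them but Slc25a25 in FPKM. The DEGs were called from the same libraries, so their lack of overlap is a description and no further support. The median log2 fold change was 0.19 over the members, and it turned to −0.47 with library size alone and to −0.12 with limma on log2(FPKM + 1). The median standard error was 0.20 over the members and 0.26 over all genes.

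**Figure D1:**
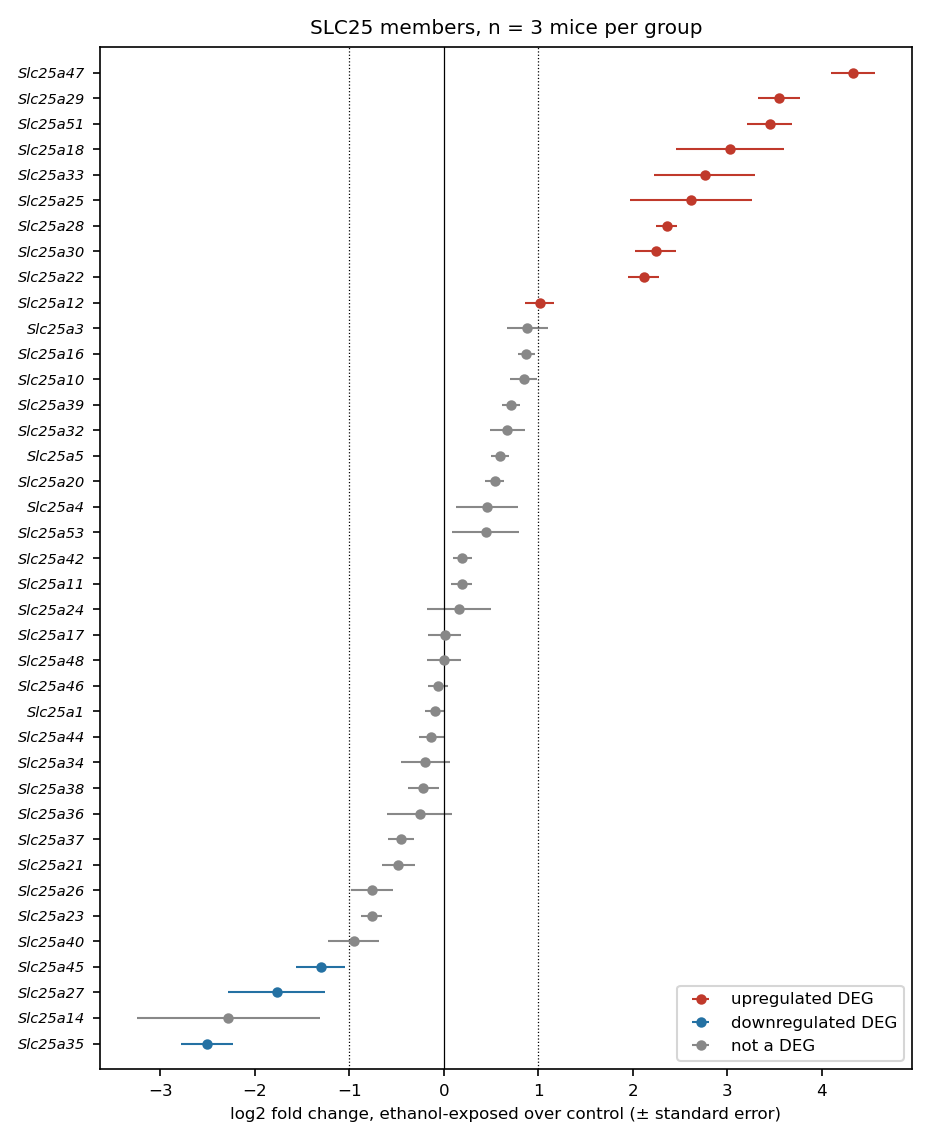
Log2 fold change of 39 of the 40 SLC25 members tested, ethanol-exposed over control mice (n = 3 each), with bars for the standard error and dotted lines at the fold change threshold of 1. Slc25a47 stands highest at 4.33 and Slc25a35 lowest at −2.51. Slc25a14 at −2.28 has the widest bar and is not a DEG in the edgeR fit with TMM factors shown here.

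Counts by level are given as a description, because the mean FPKM over all 6 libraries includes the ethanol-exposed mice and a member's own change helps to set its level. Slc25a33 reached 10 FPKM, and Slc25a45 fell below it, through their own changes. In the same way Slc25a29 passed 1 FPKM (0.57 in control and 4.19 in ethanol-exposed mice). Slc25a26 fell below 1 FPKM (1.04 and 0.38). Of 17 members with a mean FPKM of 10 and over, 5 were upregulated and 0 downregulated, with a median log2 fold change of 0.71. Over all 2607 genes of that level the shares were 16.7% and 5.72%, and the median was 0.38. Among 9 members under 1 FPKM, 1 was upregulated and 2 were downregulated, with a median of −0.76, and over all 7123 such genes the shares were 7.82% and 18.6% and the median was −0.39. The median over 14 members of 1 to 10 FPKM was −0.03, with 4 upregulated and 1 downregulated, and over all 6987 such genes the shares were 10.7% and 11.9%.

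The largest increase was that of Slc25a47 (ENSMUSG00000048856, chr12:108801972-108822741), a carrier found mainly in hepatocytes whose substrate is not settled. It was at 6322, 5696 and 3659 CPM in ethanol replicates 1, 2 and 3 and at 270.7, 247 and 259.8 CPM in the controls. The groups were far apart, and the lowest ethanol-exposed mouse was still above every control. The log2 fold change was 4.33 (standard error, SE, 0.23; adjusted p = 7.33e-05, edgeR), or 20.2-fold.

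Slc25a29 (ENSMUSG00000021265, chr12:108791799-108801809), a carrier of basic amino acids, lies next to Slc25a47 on the opposite strand. It was at 16.0, 14.1 and 14.2 CPM in ethanol-exposed and 1.13, 1.64 and 1.02 CPM in control mice, again without overlap. Its log2 fold change was 3.55 (SE 0.22, adjusted p = 9.89e-05, edgeR), or 11.7-fold. Per length the pair differed in level, since the FPKM of Slc25a47 was 345, 353 and 225 times that of Slc25a29 in ethanol-exposed and 211, 132 and 225 times in control mice.

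In the deposited table these neighbours start 162 bases apart on opposite strands, and their GENCODE starts in GRCm38 are separated by the same 162 bases (chr12:108835884-108836045). The RefSeq start of Slc25a47 lies 15083 bases further on, so the promoter of that gene depends on the annotation. Both windows are shown because the 2 largest fold changes of the family come from this pair. They are RefSeq windows of GRCm38.p6, each of 300 bases and read on the strand of the gene, at chr12:108835827-108836126 (minus strand) for Slc25a29 and chr12:108850879-108851178 (plus strand) for Slc25a47. Capitals mark the 162 bases between the GENCODE starts.
Slc25a29: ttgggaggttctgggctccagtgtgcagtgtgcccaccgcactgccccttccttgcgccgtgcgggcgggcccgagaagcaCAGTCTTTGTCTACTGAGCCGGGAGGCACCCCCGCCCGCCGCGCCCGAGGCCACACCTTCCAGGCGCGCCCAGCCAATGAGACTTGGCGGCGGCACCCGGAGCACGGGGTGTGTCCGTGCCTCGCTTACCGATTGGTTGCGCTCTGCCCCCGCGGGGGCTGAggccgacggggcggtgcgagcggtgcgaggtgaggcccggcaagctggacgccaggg
Slc25a47: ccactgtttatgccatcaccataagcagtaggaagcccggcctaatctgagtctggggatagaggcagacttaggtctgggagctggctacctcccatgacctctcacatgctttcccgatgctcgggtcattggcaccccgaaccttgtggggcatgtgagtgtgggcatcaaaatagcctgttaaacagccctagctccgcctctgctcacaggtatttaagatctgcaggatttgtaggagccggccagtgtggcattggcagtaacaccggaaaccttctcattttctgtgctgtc
The Slc25a29 window had a GC content of 72.3% and the RefSeq window of Slc25a47 53.3%.

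Cofactor carriers included 1 DEG among 6 tested (16.7%, against 24.2% of all genes). Slc25a51 (ENSMUSG00000045973, chr4:45395923-45408766) imports NAD+, which the matrix needs as electron acceptor for most of its dehydrogenases. It was at 667, 684.5 and 388 CPM in ethanol-exposed and 55.6, 52.7 and 50.9 CPM in control mice. Every ethanol-exposed mouse was above every control, and ethanol replicate 3 was the lowest of its group, as for Slc25a47. The log2 fold change was 3.45 (SE 0.24, adjusted p = 0.000139, edgeR), or 10.9-fold. The small RNA gene Gm56273, which lies within it on the same strand, had 1 to 36 counts.

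The other cofactor carriers changed by less. Slc25a16, linked to coenzyme A, was higher at a log2 fold change of 0.87 (adjusted p = 0.000493, edgeR) with 83.9 to 88.0 CPM in ethanol-exposed and 46.1 to 47.9 CPM in control mice, and stood at 0.21 with library size alone (adjusted p = 0.113, edgeR). Slc25a26, the carrier of S-adenosylmethionine, was lower at −0.76 (adjusted p = 0.0311, edgeR, but 0.0663 with the replicate block, 0.0664 with the length trend removed and 0.0748 to 0.105 when a library other than ethanol replicate 3 was dropped). Lrig1, which overlaps Slc25a26 on the opposite strand, had 1181 to 2362 counts, against 127 to 384 for Slc25a26. The strand limit given below for Slc25a18 therefore applies. Slc25a32, the folate carrier, was higher at 0.67 (adjusted p = 0.0251, edgeR) with the TMM factors, and stood at −0.01 on log2(FPKM + 1) in limma and 0.01 with library size alone, and its adjusted p was 0.0628 to 0.0920 when a library other than ethanol replicate 3 was dropped. Slc25a17, which serves the peroxisome and not the mitochondrion, was at 0.01 with the TMM factors (adjusted p = 0.967, edgeR). It turned to −0.65 with library size alone (adjusted p = 0.0222, edgeR) and to −0.65 on log2(FPKM + 1) in limma (adjusted p = 0.0168).

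**Figure D2:**
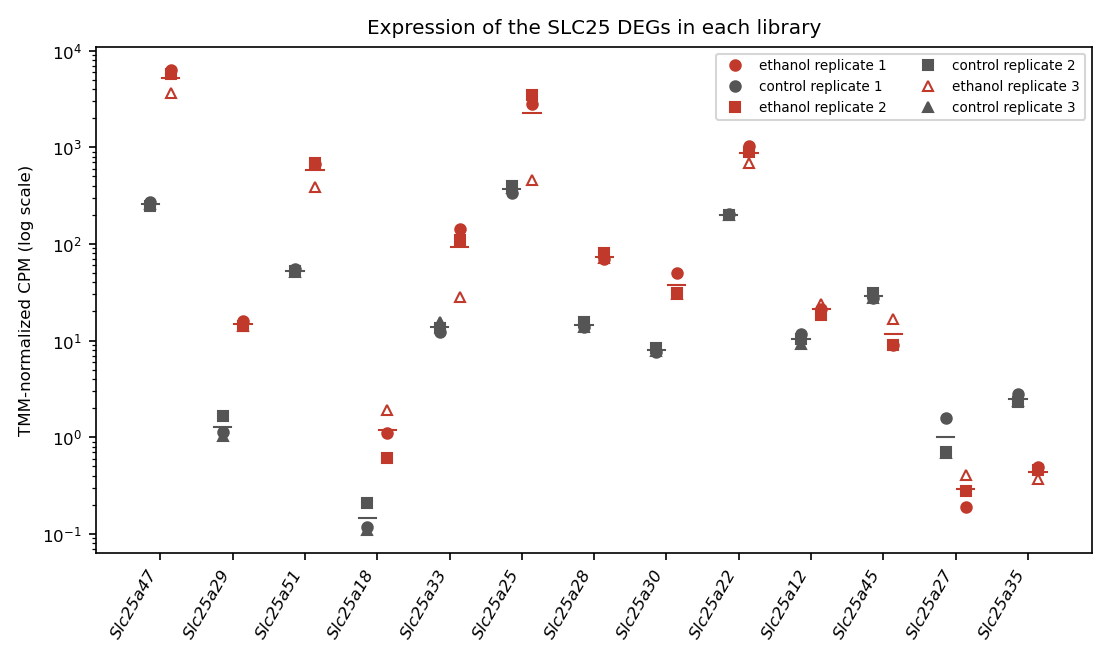
TMM-normalized CPM on a log scale of the 13 SLC25 DEGs in each library, with control mice in grey, ethanol-exposed mice in red, ethanol replicate 3 as open triangles and a line at each group mean. The groups do not overlap for any of these genes on this scale, although they do for Slc25a25 in FPKM, and ethanol replicate 3 sits close to the controls for Slc25a25 (459.5 against 334 to 396 CPM) and Slc25a33 (28.0 against 12.1 to 15.7 CPM).

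Amino acid carriers held 4 upregulated and 0 downregulated members among 6 tested, with a median log2 fold change of 1.57. Over all genes 10.4% were upregulated and 13.8% downregulated, with a median of −0.04. The calls of 2 of these carriers, Slc25a18 and Slc25a12, carry limits given with their values. They were Slc25a29, described above, and 3 carriers of glutamate or aspartate. Slc25a22 (ENSMUSG00000019082, chr7:141009657-141017805), which brings glutamate into the matrix together with a proton, was at 1030, 898 and 685 CPM in ethanol-exposed and 202, 200.5 and 199.6 CPM in control mice. The controls were nearly equal to each other and all ethanol-exposed mice were above them. Its log2 fold change was 2.12 (SE 0.16, adjusted p = 0.000203, edgeR).

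Slc25a18 (ENSMUSG00000004902, chr6:120750539-120771297), the second glutamate carrier, was at 1.10, 0.605 and 1.89 CPM in ethanol-exposed and 0.117, 0.210 and 0.109 CPM in control mice. These are 37 to 103 and 9 to 16 counts, and Atp6v1e1, which overlaps it on the opposite strand, had 4201 to 6734 counts. Whether counting used the strand is not given in the sources used here, so the value of Slc25a18 is uncertain. Its log2 fold change was 3.03 (SE 0.57, adjusted p = 0.00547, edgeR). Per length, Slc25a22 made up 99.5% of the FPKM of the glutamate carriers in ethanol-exposed and 99.8% in control mice, so the low member hardly entered their sum.

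Slc25a12 (ENSMUSG00000027010, chr2:71101407-71198093) exchanges aspartate for glutamate in the malate-aspartate shuttle, which carries the electrons of cytosolic NADH into the matrix. It was at 21.1, 18.3 and 23.8 CPM in ethanol-exposed and 11.7, 10.4 and 9.16 CPM in control mice, without overlap. The log2 fold change was 1.02 (SE 0.15, adjusted p = 0.00211, edgeR), just past the threshold. It fell short of 1 without ethanol replicate 3, at 0.93, and without control replicate 3, at 0.93, and at 0.99 with DESeq2. With library size alone it was 0.34 (adjusted p = 0.0772, edgeR) and with limma on log2(FPKM + 1) 0.22 (adjusted p = 0.0819), and the call was also lost with upper quartile scaling and with either other filter. The remaining tested amino acid carriers were not called: Slc25a38, the glycine carrier, at −0.22 (adjusted p = 0.315, edgeR) and Slc25a44, the branched-chain amino acid carrier, at −0.13 (adjusted p = 0.438, edgeR). Slc25a2, an ornithine carrier, was not tested, with 0 to 17 counts.

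Carriers of adenine and other nucleotides and phosphate held 2 upregulated and 0 downregulated members among 9 tested (22.2%, near the 24.2% of all genes that were DEGs), and in both ethanol replicate 3 stood apart. Slc25a25 (ENSMUSG00000026819, chr2:32304499-32341434), a calcium-regulated carrier that exchanges ATP-Mg for phosphate, was at 2842, 3478 and 459.5 CPM in ethanol-exposed and 334, 396 and 378 CPM in control mice. Ethanol replicates 1 and 2 were far above the controls, whereas replicate 3 was only just above the highest of them. In FPKM, replicate 3 was at 41.9 and below all controls, which were at 50.3, 59.3 and 56.5, so the lack of overlap depends on the TMM factors. The log2 fold change was 2.61 (SE 0.65, adjusted p = 0.0157, edgeR). Without ethanol replicate 3 it was 3.11 (adjusted p = 3.89e-06, edgeR), and without a control mouse it was 2.54 to 2.66 (adjusted p = 0.0580 to 0.0667, edgeR). With limma it was 1.48 on log2(FPKM + 1) (adjusted p = 0.113) and 1.5 on log2(FPKM + 0.1) (adjusted p = 0.129), so the call was lost there too.

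Slc25a33 (ENSMUSG00000028982, chr4:149828493-149858734), a pyrimidine nucleotide carrier, was at 143, 110 and 28.0 CPM in ethanol-exposed and 12.1, 13.5 and 15.7 CPM in control mice. Replicate 3 was again the lowest ethanol-exposed mouse and still above every control. The log2 fold change was 2.76 (SE 0.54, adjusted p = 0.00623, edgeR), and 3.21 without ethanol replicate 3. Over the 40 members, 5 lay more than 2-fold from the mean of ethanol replicates 1 and 2 in replicate 3 (12.5%), against 20.1% of all genes. Slc25a25 and Slc25a33 were lower there, by log2 differences of −2.78 and −2.17, and Slc25a14 and Slc25a18 were among those higher, by 1.84 and 1.11.

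Promoter windows of Slc25a25 and Slc25a33 are shown because both genes differed most between ethanol replicate 3 and the other ethanol-exposed mice, and each holds a motif that was searched. The motifs were the cyclic AMP response element TGACGTCA, the E-box CACGTG, the estrogen-related receptor site TCAAGGTCA and the NRF1 core GCGCATGCG, on both strands, in windows of 250 bases before to 50 after each RefSeq start in GRCm38.p6. Not every chromosome was included in this search, so members on a chromosome left out could have no window. The search used 42 windows of 33 members. Below, all windows means those of every gene on the chromosomes included. Capitals mark TGACGTCA in 1 of the windows of Slc25a25 (chr2:32424017-32424316, minus strand), which begins at position −150 from the start, and CACGTG in the window of Slc25a33 (chr4:149774218-149774517, minus strand), which begins at position −8.
Slc25a25: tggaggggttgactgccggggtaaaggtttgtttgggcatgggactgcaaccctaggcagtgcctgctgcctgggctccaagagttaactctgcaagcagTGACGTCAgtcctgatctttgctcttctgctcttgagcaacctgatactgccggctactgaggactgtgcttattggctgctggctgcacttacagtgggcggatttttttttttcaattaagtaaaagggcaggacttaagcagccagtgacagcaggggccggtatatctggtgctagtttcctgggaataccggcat
Slc25a33: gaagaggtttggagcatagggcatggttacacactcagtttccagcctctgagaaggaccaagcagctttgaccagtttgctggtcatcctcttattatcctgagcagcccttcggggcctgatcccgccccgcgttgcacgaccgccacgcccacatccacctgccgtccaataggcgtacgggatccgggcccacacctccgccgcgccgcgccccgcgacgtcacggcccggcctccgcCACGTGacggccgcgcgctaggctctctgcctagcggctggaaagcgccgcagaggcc
TGACGTCA was present in 2 member windows, the other being that of Slc25a36, and in 1.79% of all 32851 windows. CACGTG was present in 6 member windows of 5 genes, 2 of them overlapping windows of Slc25a14 with the same site, and in 7.15% of all windows. TCAAGGTCA and GCGCATGCG, in 0.423% and 1.75% of all windows, were in 0 member windows. A match is a description of these letters and no evidence of binding.

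Slc25a5, the main ADP/ATP translocase of liver, had the highest FPKM of the family in controls, 200.1, 188.8 and 186.8, and 178.7, 198.6 and 169.1 in ethanol-exposed mice, where the groups overlapped. On the TMM scale it was at 388 to 419 CPM in ethanol-exposed and 261 to 278 CPM in control mice, a log2 fold change of 0.59 (adjusted p = 0.00312, edgeR) that turned to −0.07 with library size alone and to −0.08 on log2(FPKM + 1) in limma. Its direction thus depends on the scaling. It made up 99.4% of the FPKM of the translocases Slc25a4, Slc25a5 and Slc25a31 in ethanol-exposed and 99.3% in control mice (exact permutation test, two-sided, p = 0.9). The pseudogene Slc25a5-ps had 2 to 25 counts.

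Slc25a3, the phosphate carrier that supplies ATP synthase, was higher at a log2 fold change of 0.88 (adjusted p = 0.0155, edgeR), with 333 to 630 CPM in ethanol-exposed and 257 to 262 CPM in control mice. It stood at 0.23 with library size alone (adjusted p = 0.449, edgeR), its FPKM overlapped between the groups, and without a control mouse the adjusted p was 0.0559 to 0.0616. It passed 1 without ethanol replicate 3, at 1.10 (adjusted p = 0.000269, edgeR), and with the length trend removed, at 1.07 (adjusted p = 0.00854, edgeR). Slc25a23, a second ATP-Mg and phosphate carrier, was lower at 138, 128 and 120 CPM against 202, 234 and 220 CPM (log2 fold change −0.76, SE 0.11, adjusted p = 0.00180, edgeR). Its relative Slc25a24 was at 0.904 to 1.16 CPM in ethanol-exposed and 0.629 to 1.13 CPM in control mice (log2 fold change 0.16, SE 0.34, adjusted p = 0.723, edgeR). Slc25a36, related to Slc25a33, was at 1.56, 3.25 and 1.70 CPM against 2.08, 2.69 and 3.04 CPM (log2 fold change −0.26, SE 0.34, adjusted p = 0.571, edgeR). Slc25a4 and Slc25a42 did not pass the test, at 0.46 and 0.20 with the TMM factors and −0.22 and −0.47 with library size alone, where the adjusted p of Slc25a42 was 0.00529. With the length trend removed Slc25a42 was higher, at 0.39 (adjusted p = 0.0150, edgeR). Slc25a31, the testis translocase, was not tested, with 0 to 10 counts.

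Di- and tricarboxylate carriers held 0 DEGs among 4 tested, where 24.2% of all genes were DEGs, with log2 fold changes of −0.48 to 0.84. Slc25a10, the dicarboxylate carrier, was higher at 0.84 (adjusted p = 0.00336, edgeR), with 202 to 274 CPM in ethanol-exposed and 132 to 147 CPM in control mice. With library size alone it stood at 0.18 (adjusted p = 0.366, edgeR), and its FPKM overlapped between the groups. Slc25a1, which exports citrate for lipid synthesis and was the fourth member by FPKM in controls, was at 154, 144 and 130 CPM against 152, 154 and 150 CPM (log2 fold change −0.09, SE 0.10, adjusted p = 0.50, edgeR). The groups of Slc25a1 overlapped on this scale, while its FPKM was 42.9 to 51.8 in ethanol-exposed and 81.5 to 83.7 in control mice. Its log2 fold change was −0.76 with library size alone (adjusted p = 0.00145, edgeR) and −0.76 on log2(FPKM + 1) in limma (adjusted p = 0.000724). Slc25a11, the oxoglutarate carrier of the malate-aspartate shuttle, was at 0.19 (adjusted p = 0.208, edgeR), which turned to −0.47 with library size alone (adjusted p = 0.0201, edgeR). Slc25a21 was at −0.48 (adjusted p = 0.0600, edgeR).

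The carnitine-acylcarnitine carrier Slc25a20, which admits fatty acids for oxidation, was higher at 0.54 (adjusted p = 0.00523, edgeR) with the TMM factors and at −0.13 with library size alone. Slc25a39, the glutathione carrier and second in the family in controls by FPKM, was at 422, 422 and 435 CPM in ethanol-exposed and 248.6, 267.7 and 264.4 CPM in control mice (log2 fold change 0.71, SE 0.10, adjusted p = 0.00149, edgeR). The groups did not overlap in CPM, but its FPKM was 111 to 119.5 against 106.7 to 114.4, and its log2 fold change was 0.04 with library size alone (adjusted p = 0.740, edgeR). Its relative Slc25a40 was lower at −0.95 (adjusted p = 0.0253, edgeR, and 0.0515 to 0.106 with the length trend removed or without ethanol replicate 1, ethanol replicate 2, control replicate 1 or control replicate 3) and made up 0.114% of the FPKM of the pair in ethanol-exposed and 0.364% in control mice.

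The mitoferrins, which bring iron into the matrix for heme and iron-sulfur clusters, differed from each other in direction. Slc25a28 (mitoferrin 2, ENSMUSG00000040414, chr19:43652240-43663299) was at 69.0, 80.7 and 71.7 CPM in ethanol-exposed and 13.8, 15.5 and 13.9 CPM in control mice. The groups were far apart and each was tight, and the log2 fold change of 2.36 had the smallest standard error among the DEGs, 0.11 (adjusted p = 5.92e-05, edgeR). Slc25a37 (mitoferrin 1), best known from red cell precursors, was lower at 34.2, 35.3 and 26.9 CPM against 48.0, 42.4 and 41.5 CPM (log2 fold change −0.45, SE 0.14, adjusted p = 0.0320, edgeR). Its adjusted p was 0.178 with the length trend removed, 0.0594 without ethanol replicate 1 and 0.0721 to 0.110 without a control mouse. Per length, Slc25a28 made up 76.4%, 78.6% and 81.1% of the pair in ethanol-exposed and 31.5%, 36.9% and 34.9% in control mice, a difference of 44.2 percentage points. The exact permutation test of that share gave p = 0.1 (two-sided), the smallest that 3 against 3 mice allow. Erythroid markers were higher in ethanol-exposed mice, with 4 of 5 tested upregulated and a sum of 579 to 864 CPM against 180 to 220 CPM. Their part in the mitoferrin values was not tested.

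**Figure D3:**
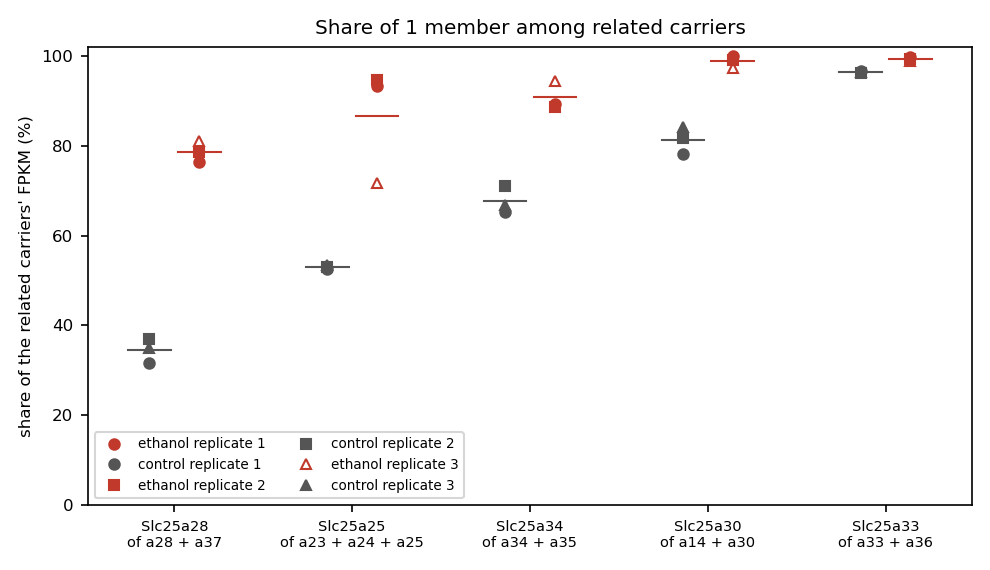
Share of 1 member in the summed FPKM of its closest relatives (percent) in each library, control mice in grey and ethanol-exposed mice in red, with lines at the group means. The groups do not overlap in any of the 5 families shown, and Slc25a28 passes from 34.5% to 78.7% of the mitoferrins. The translocases and the glutamate carriers, where the groups overlap, are not drawn. Neither is the pair of Slc25a39 and Slc25a40, where they do not overlap.

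Related carriers shifted against each other in other groups too. Slc25a25 made up 93.2%, 94.7% and 71.8% of the FPKM of Slc25a23, Slc25a24 and Slc25a25 in ethanol-exposed mice and 52.6%, 53.1% and 53.5% in controls (exact permutation test, two-sided, p = 0.1). In ethanol replicate 3, where Slc25a25 itself was below the controls in FPKM, the higher share came with a lower Slc25a23, at 16.3 FPKM against 45.0 to 52.1. Slc25a33 made up 98.8% to 99.8% of its pair with Slc25a36 in ethanol-exposed and 96.2% to 96.8% in control mice, a mean change of 2.89 percentage points that was 12.6 in counts without scaling to length. Shares cancel any scaling that acts on a whole library, so they do not depend on the TMM factors.

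Members without an assigned substrate class here gave 2 upregulated and 3 downregulated DEGs among 10 tested (20% and 30%, against 10.4% and 13.8% of all genes). Besides Slc25a47, Slc25a30 (ENSMUSG00000022003, chr14:75997557-76024477), which resembles the uncoupling proteins, rose to 50.5, 31.0 and 30.5 CPM from 7.59, 8.33 and 7.75 CPM in controls. All ethanol-exposed mice were above the controls, and the log2 fold change was 2.24 (SE 0.22, adjusted p = 0.000417, edgeR). Its relative Slc25a14 had 0, 10 and 23 counts in ethanol-exposed and 105, 74 and 62 counts in control mice. Every ethanol-exposed mouse was below every control, but the log2 fold change of −2.28 had a standard error of 0.97 (adjusted p = 0.0961, edgeR). Without ethanol replicate 3 it was −3.47 (adjusted p = 0.0175, edgeR). It also passed both thresholds with DESeq2, at −2.32 (adjusted p = 0.0343), and with library size alone, at −2.95 (adjusted p = 0.0338, edgeR). In the other alternatives that tested Slc25a14, the adjusted p was 0.0574 to 0.222 (edgeR). Slc25a30 made up 97.4% to 100% of the FPKM of this pair in ethanol-exposed and 78.1% to 84.3% in control mice.

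Slc25a35 (ENSMUSG00000018740, chr11:68858957-68863342) had the largest decrease, with 0.487, 0.458 and 0.366 CPM in ethanol-exposed and 2.77, 2.34 and 2.38 CPM in control mice. The groups did not overlap, and the log2 fold change was −2.51 (SE 0.27, adjusted p = 0.000669, edgeR). Rangrf, on the opposite strand of the same interval, had 11 to 91 counts, so the strand limit given for Slc25a18 applies. Its relative Slc25a34 was at 2.97, 2.49 and 4.43 CPM against 3.74, 4.15 and 3.45 CPM (log2 fold change −0.20, SE 0.26, adjusted p = 0.565, edgeR). The share of Slc25a34 in the pair was 88.6% to 94.5% in ethanol-exposed and 65.1% to 71.1% in control mice.

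Slc25a45 (ENSMUSG00000024818, chr19:5927836-5935794), a relative of the acylcarnitine carrier, was the most abundant of the downregulated members. It was at 8.90, 9.06 and 16.8 CPM in ethanol-exposed and 27.3, 30.8 and 27.8 CPM in control mice (log2 fold change −1.31, SE 0.26, adjusted p = 0.00636, edgeR). Ethanol replicate 3 lay between the other ethanol-exposed mice and the controls. Slc25a27 (ENSMUSG00000023912, chr17:43952782-43978105), an uncoupling protein relative known from brain, was at 0.191, 0.278 and 0.403 CPM against 1.58, 0.709 and 0.692 CPM (log2 fold change −1.77, SE 0.52, adjusted p = 0.0291, edgeR). Control replicate 1 held the highest value, and without it the log2 fold change was −1.27 (adjusted p = 0.122, edgeR). Without ethanol replicate 1, ethanol replicate 2, control replicate 2 or control replicate 3 its adjusted p was 0.0811, 0.0678, 0.0508 and 0.0502. The others of this class, Slc25a46, Slc25a48 and Slc25a53, did not pass the test. With library size alone, which lowers all genes, Slc25a46 at −0.73, Slc25a48 at −0.66, Slc25a38 at −0.88, Slc25a44 at −0.80, Slc25a34 at −0.87 and Slc25a21 at −1.15 had adjusted p of 0.00178 to 0.0253 (edgeR). In this class Slc25a43 was not tested, with 0 to 4 counts.

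The make-up of the family changed along with these genes. In controls the 5 highest members by mean FPKM were Slc25a5 at 191.9, Slc25a39 at 111.3, Slc25a47 at 102.4, Slc25a1 at 82.8 and Slc25a25 at 55.4, together 58.6% of the summed FPKM. In ethanol-exposed mice Slc25a47 was first at 1301 FPKM, followed by Slc25a25 at 216, Slc25a5 at 182, Slc25a39 at 114.5 and Slc25a22 at 108, together 81.5%. The place of Slc25a25 above Slc25a5 did not hold in every mouse, since it was at 41.9 FPKM in ethanol replicate 3, where Slc25a5 was at 169. Slc25a47 alone made up 57.3%, 53.5% and 54.4% of the summed FPKM in ethanol-exposed and 11.5%, 10.5% and 11.2% in control mice.

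**Figure D4:**
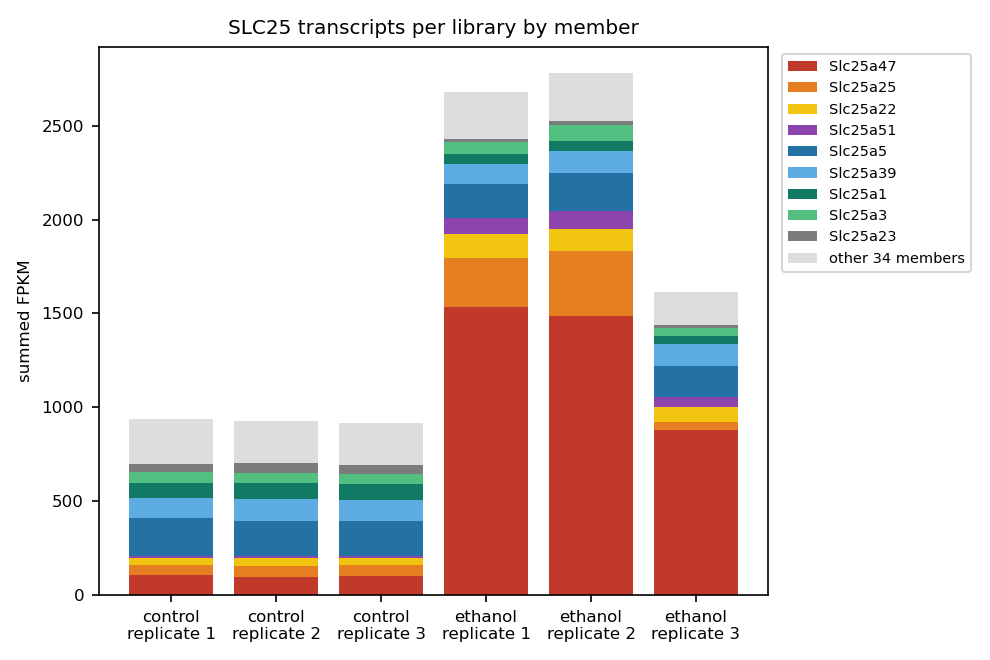
Summed FPKM of the 43 SLC25 members in each library, stacked by member. Slc25a47 takes 53.5% to 57.3% of each ethanol-exposed bar and 10.5% to 11.5% of each control bar, and ethanol replicate 3 has the lowest sum of its group.

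Summed over the members, FPKM was 2678, 2781 and 1615 in ethanol-exposed and 936.5, 929.7 and 917.1 in control mice, 2.54-fold higher on average (exact permutation test, two-sided, p = 0.1). Without Slc25a47 the sums were 1143, 1292 and 736 against 829, 832 and 815, where ethanol replicate 3 fell below all controls (1.28-fold, exact permutation test, two-sided, p = 0.4). Members took 1.06%, 1.14% and 0.577% of all counts in ethanol-exposed and 0.345% to 0.351% in control mice.

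Genes that work beside the carriers were compared by lists of the import machinery, of shuttle enzymes and of other carriers and channels of the mitochondrion. Of 13 import genes, 2 were upregulated and 1 was downregulated, with a median log2 fold change of 0.22. Tomm20, an outer membrane receptor for mitochondrial proteins, was at 1.28 (adjusted p = 0.000198, edgeR), Timm10, a small chaperone of the intermembrane space, at 1.11 (adjusted p = 0.00107, edgeR), and Agk, a subunit of the carrier translocase, at −1.23 (adjusted p = 0.00637, edgeR).

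Of 14 shuttle and enzyme genes, 2 were upregulated and 1 was downregulated, with a median of 0.10. Got1, the cytosolic aspartate aminotransferase of the malate-aspartate shuttle, was at 2119, 2128 and 1361 CPM in ethanol-exposed and 164, 120 and 121 CPM in control mice. The groups were far apart, and the log2 fold change was 3.79 (SE 0.24, adjusted p = 9.93e-05, edgeR). Its mitochondrial partner Got2 was at 0.20 (adjusted p = 0.178, edgeR). Cpt1a, which makes the acylcarnitine that Slc25a20 carries, rose by a log2 fold change of 1.17 (adjusted p = 0.000426, edgeR), and Acly, which cleaves the citrate that Slc25a1 exports, was at −1.33 (adjusted p = 0.0319, edgeR).

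Of 14 tested genes for other carriers and channels, 2 were upregulated and 2 downregulated, with a median of 0.27. Mpc1, a subunit of the pyruvate carrier, was at 1.16 (adjusted p = 0.000337, edgeR), and Ucp2, an SLC25 carrier outside the naming rule, at 1.17 (adjusted p = 0.0125, edgeR). Mcu, the pore of the calcium uniporter, was at −1.65 (adjusted p = 0.000991, edgeR) and Sfxn5, a sideroflexin, at −1.51 (adjusted p = 0.000438, edgeR). DEGs in either direction were thus 3 of 13, 3 of 14 and 4 of 14 in these lists, where 24.2% of all genes were DEGs.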

How the data were processed

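Liver RNA of 6 mice was sequenced as paired-end libraries on an Illumina platform, per the study's methods, and every library took its group and number from its label. The authors deposited a table with a whole-number read count per gene and library, not normalized, and beside it an FPKM value, scaled by the authors to transcript length and library size. The aligner, the counting software and its use of the strand are not given in the sources used here. The submitters' processing notes name GRCm38 and mm10, yet 1 of 43 members had the start and end of the GENCODE annotation of GRCm38, so gene coordinates follow the deposited table and are given without a build, while promoter windows are separate RefSeq coordinates of GRCm38.p6. In the table, 1 count column matched no library and was not used, and 2 rows of the family name, the single values of a further member and 1 marker gene are not reported here. Of the members, 19 were overlapped by another gene, 7 of them on the same strand.

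Counts were analysed in R 4.3.3 with edgeR 4.0.16 (filterByExpr, TMM, quasi-likelihood test, two-sided, no covariates) and Benjamini-Hochberg adjustment over 16717 genes. The DEG thresholds, 0.05 for the adjusted p and 1 for the log2 fold change, are those of the study's methods. Standard errors were derived from the fold change and its F statistic. The square root of the common dispersion was 0.299. At these depths the 3 mice per group limit the precision, and 3 counts correspond to 0.0320 to 0.0550 CPM. Sums and shares of FPKM were compared by an exact permutation test over the 6 libraries. Alternatives used DESeq2 1.42.0, limma 3.58.1 on log2(FPKM + 1) and log2(FPKM + 0.1) with a mean FPKM of at least 0.5, other scalings and filters, a replicate block and each library left out in turn. Figures were drawn with matplotlib 3.10.9.

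The members, lists, role classes and alternatives were chosen with earlier results of these data known. Full values are given for members that are DEGs, for the 5 highest in controls by FPKM and for relatives of DEGs, and partner genes are named where they are DEGs or partners of one. The neighbours on chromosome 12 and the promoter windows shown were also chosen after the values were seen. Slc25a41 was not analysed here, and neither was Ucp1 among the partner genes. Libraries of a group differed by more than sampling noise, with a chi-square of 40.4 to 394 for each degree of freedom. Same-numbered libraries did not deviate together (correlations of −0.03, −0.02 and −0.02), so the numbers do not pair mice. Kupffer and stellate cell lists held 0 DEGs of 5 each, T cell 0 of 3 tested, B cell 1 lower of 4, endothelial 1 higher and 1 lower of 5, cholangiocyte 1 higher of 5, and neutrophil 4 higher of 4 tested, the last with sums of 2.12 to 12.1 CPM against 0.118 to 0.401 CPM.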

Additional observations from a re-analysis of the deposited data

How the results depend on the processing

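Of the 13 DEGs, 10 were called under all alternatives in which they were tested: Slc25a47, Slc25a51, Slc25a29, Slc25a28, Slc25a22, Slc25a30, Slc25a33, Slc25a18, Slc25a45 and Slc25a35. Slc25a12 kept its call in 7 of 16 alternatives, Slc25a25 in 11 of 16 and Slc25a27 in 7 of 13. The number of upregulated members stayed within 7 to 12. Downregulated members numbered 3, where 24.2% of all genes were DEGs in either direction. They numbered 9 with library size alone (37.3% of all genes) and 6 of 32 tested with limma on log2(FPKM + 0.1) (35.6%). At a mean FPKM of at least 1 (22.8%), 1 of 31 tested was downregulated, and that filter left out Slc25a35 and Slc25a27. With a library left out (18.5% to 27.4%) they numbered 2 to 6, the most without ethanol replicate 3. Partner genes called numbered 10, and 6 with limma on log2(FPKM + 1). With the replicate block, 10 members were upregulated and 2 downregulated, 22 had an adjusted p under 0.05 and 10 partner genes were called. Slc25a27 was the DEG that lost its call under the block (adjusted p = 0.0902, edgeR), and Slc25a26 no longer had an adjusted p under 0.05 (0.0663, edgeR). The summed level was 2.54-fold higher, 4.03-fold as TMM CPM per kilobase and 1.28-fold without Slc25a47. In counts without scaling to length, the change in share was 12.6 percentage points for Slc25a33, 0.760 for Slc25a39, 10.1 for Slc25a30 and 27.4 for Slc25a34. In FPKM, the change in share of Slc25a5 was −0.043 to 0.17 percentage points with a library left out.

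Some log2 fold changes turned direction. With library size alone they were −0.22 for Slc25a4, −0.072 for Slc25a5, −0.47 for Slc25a11, −0.65 for Slc25a17, −0.13 for Slc25a20, −0.50 for Slc25a24, −0.47 for Slc25a42, −0.66 for Slc25a48 and −0.23 for Slc25a53. With limma on log2(FPKM + 1) they were −0.12 for Slc25a4, −0.078 for Slc25a5, −0.47 for Slc25a11, −0.65 for Slc25a17, −0.12 for Slc25a20, −0.014 for Slc25a32, −0.44 for Slc25a42 and −0.51 for Slc25a48. On log2(FPKM + 0.1) they were −0.20, −0.078, −0.49, −0.68, −0.13, −0.026, −0.47 and −0.67 in the same order. Slc25a17 and Slc25a48 were at −0.085 and −0.094 with upper quartile scaling, −0.018 and −0.025 without the low count filter, −0.095 and −0.10 at a mean FPKM of at least 1, −0.015 and −0.022 with DESeq2, and −0.015 and −0.015 with the replicate block. With a library left out they ranged from −0.11 to 0.20 and from −0.17 to 0.15, and Slc25a24 from −0.058 to 0.32. Removing the trend with transcript length gave 0.013 for Slc25a44 and 0.12 for Slc25a46. The cause was not tested. The low depth of Slc25a14, 0 to 105 counts, stands beside a standard error of 0.97.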
